A study of Rattus norvegicus with 17 samples.

Results

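Genes of the desmosome and the adherens junction were followed in the meibomian gland (MG), the lipid-secreting gland of the eyelid, of rats with and without UVB exposure and with and without a transgene for the mineralocorticoid receptor (MR). The 10 genes were taken by symbol and were the desmosomal cadherins Dsg2, Dsg3, Dsc2 and Dsc3, the desmosomal plaque genes Pkp1, Pkp3, Dsp and Jup, and the classical cadherins Cdh1 and Cdh3. All 10 were among the 17251 genes with a deposited value, and all 10 passed the filter on low values described below.

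The animals were female rats of 10 to 12 weeks on the Sprague-Dawley background, with 1 deposited RNA-seq column per rat. Control WT (n = 4) and Control P1.hMR (n = 5) rats received no UVB, whereas the eyelids of UVB WT (n = 3) and UVB P1.hMR (n = 5) rats were irradiated daily for 5 days. P1.hMR rats carry human NR3C2, the gene for MR, under its own proximal P1 promoter, which is active in every tissue that makes MR, so the transgene is not restricted to the MG. The upper eyelids were shaved for the irradiation. The study's methods count the UVB groups in eyes, a pair for each column, and state for animal work in general that both eyes of a rat, where used, made 1 pooled sample. Whether control eyelids were shaved is not settled by the sources used here.

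Expression was deposited as TPM, which states each transcript's share of a sample per unit of transcript length, so levels can be set side by side between genes and no read depth is kept. The human NR3C2 row stood at 0 TPM in every WT rat and between 5.31 and 9.31 TPM in every P1.hMR rat, matching the labels. In each rat 12372 to 12737 genes reached 1 TPM. The tissue label was checked against markers. All 10 meibocyte markers were detected, with a summed level of 20400 to 28509 TPM per rat. So were 13 of 15 epithelial markers, the rest having no deposited value. Skeletal muscle markers (1587 to 3778 TPM) and hair keratin markers (195 to 863 TPM) were detected too. RNA of muscle and hair follicle was thus present beside that of the gland, and a lower value may mean fewer cells of a type or less RNA per cell, which cannot be told apart in such bulk samples.

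Desmosomes fasten neighbouring epithelial cells to each other and tie the contact to the keratin filaments inside. Desmogleins (Dsg) and desmocollins (Dsc) span the membrane, plakoglobin (Jup) and plakophilins (Pkp) bind their tails, and desmoplakin (Dsp) links the plaque to keratin. Adherens junctions use classical cadherins, E-cadherin (Cdh1) and P-cadherin (Cdh3), tied through catenins to actin. In stratified epithelia, Dsg3 and Cdh3 are best known from basal cells, Dsg2 and Dsc2 occur also in simple epithelia, and Cdh1 is present in all living layers. The gland's acini and keratinized ducts both depend on such contacts.

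Differences between groups were tested with limma on log2(TPM + 1) with 4 group means in the model, over 13105 genes that reached 1 TPM in 3 or more rats. A gene passed at a Benjamini-Hochberg adjusted p under 0.05 over all genes tested, and it was a differentially expressed gene (DEG) when its log2 fold change was also at least 0.5 in either direction. All fold changes are on the log2(TPM + 1) scale, and SE is the standard error of the log2 fold change.

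The members spanned a wide range of levels. Averaged over the 4 group means, the plaque genes led with 447 TPM for Pkp1, 425 TPM for Dsp and 364 TPM for Jup, followed by Dsc3 with 257 TPM. Cdh1, Dsg3 and Pkp3 came next with 129.6, 118 and 106 TPM, then Dsc2 with 70.9 TPM, Cdh3 with 34.6 TPM and Dsg2 with 26.4 TPM. Most neighbours in this order were apart in nearly all rats: Jup exceeded Dsc3 in 17 of 17 rats, Dsc3 exceeded Cdh1 in 17, Pkp3 exceeded Dsc2 in 17, Dsc2 exceeded Cdh3 in 17, Dsp exceeded Jup in 16 and Cdh3 exceeded Dsg2 in 15. The order of 3 neighbours was not kept beyond the spread between rats, since Pkp1 exceeded Dsp in 11 of 17 rats, Cdh1 exceeded Dsg3 in 10 and Dsg3 exceeded Pkp3 in 12. In both control groups Dsp stood highest by mean and Dsg3 was the seventh, while in both UVB groups Pkp1 stood highest and Dsg3 was the fifth.

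After UVB, Dsg3 and Cdh3 were upregulated in both genotypes. In UVB P1.hMR rats, Dsc2, Jup and Pkp3 also rose and Cdh1 fell, whereas Dsg2, Dsc3, Dsp and Pkp1 did not pass in either genotype. The changes were modest, from a log2 fold change of -0.32 for Cdh1 to 0.66 for Dsg3. In WT rats, 2 of 10 members passed, both higher, against 21.5% of all genes tested (11.2% higher), a share close to that background. No member was a DEG there, against 7.91% of all genes, and 6 of 10 had an unadjusted limma p under 0.05, against 35.3%. In P1.hMR rats, 6 of 10 members passed, 5 higher and 1 lower, against 39.1% of all genes (18.5% higher and 20.6% lower), and these 6 had an unadjusted limma p under 0.05, against 47.6%. Only Dsg3 was a DEG, 1 of 10 members against 10.8% of all genes. The median log2 fold change of the members was 0.14 after UVB in WT rats and 0.18 under the transgene, where the medians of all genes tested were 0.0054 and -0.016.

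**Figure D1:**
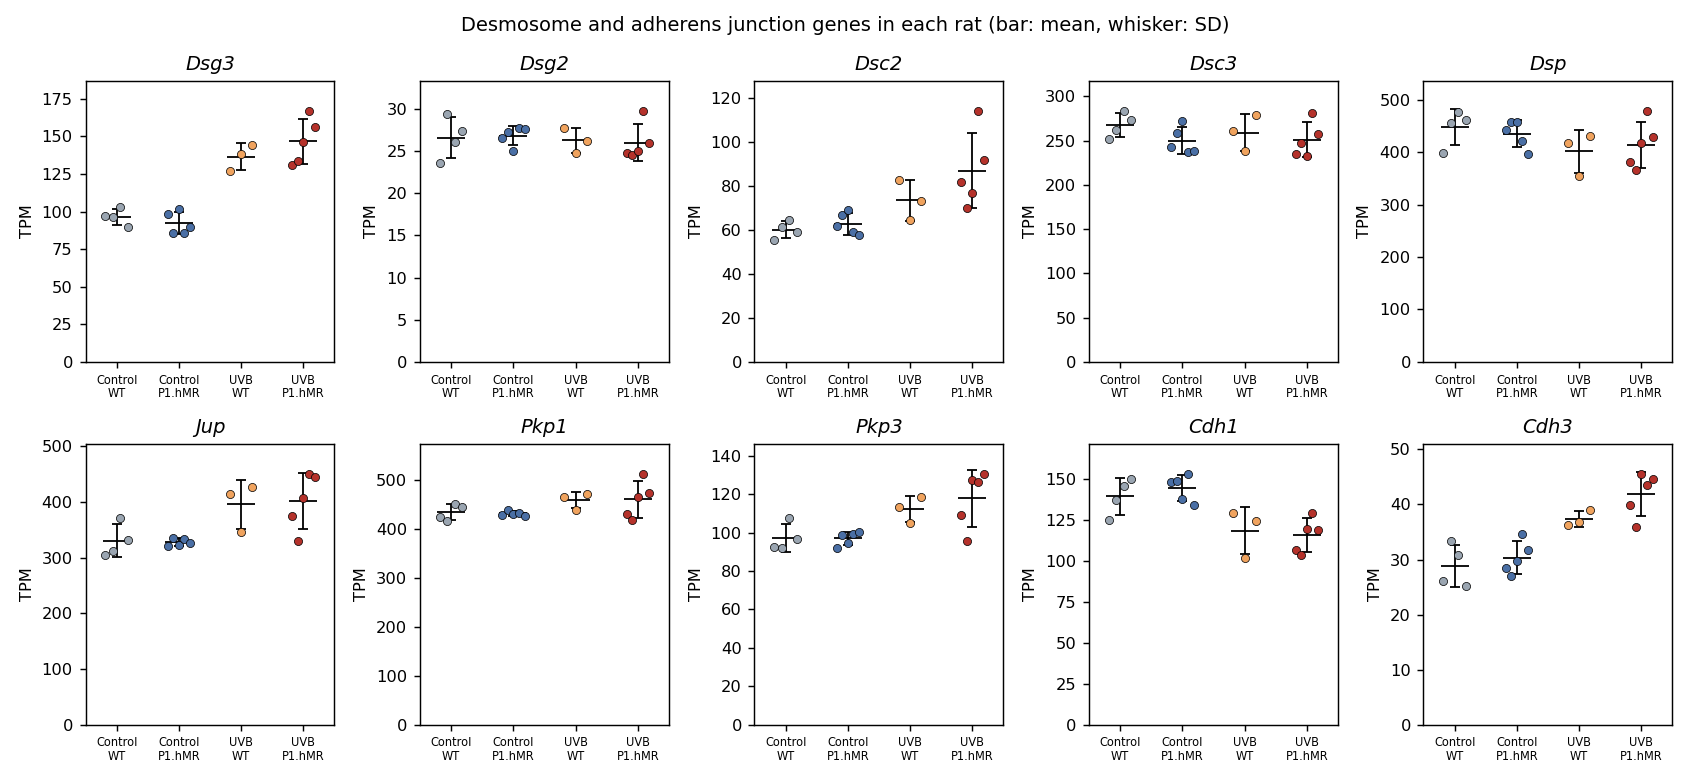
Deposited TPM of the 10 junction genes, with 1 point per rat, a bar at the group mean and whiskers of 1 SD, for Control WT (n = 4), Control P1.hMR (n = 5), UVB WT (n = 3) and UVB P1.hMR (n = 5). Each vertical axis starts at 0 TPM. All UVB rats lie above all control rats for Dsg3 and Cdh3, while Dsg2 and Dsc3 overlap in all 4 groups.

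Dsg3, the desmoglein of basal and parabasal cells and the antigen of pemphigus vulgaris, changed most. Control WT rats had 96.8, 96.1, 103 and 89.8 TPM, and UVB WT rats had 127, 138 and 144 TPM. The groups did not overlap. Their means were 96.4 ± 5.31 TPM (SD, n = 4) without and 136 ± 8.99 TPM (SD, n = 3) with UVB, for a log2 fold change of 0.50 (SE 0.083, limma adjusted p = 0.000889). This lies just under the threshold of 0.5 that defines a DEG. In P1.hMR rats, the 5 control values of 98.6, 85.8, 101, 85.5 and 90.0 TPM stood against 5 UVB values of 131, 134, 146, 167 and 156 TPM. Again no UVB rat reached down to a control rat. Their means were 92.3 ± 7.37 TPM (SD, n = 5) without and 147 ± 15.1 TPM (SD, n = 5) with UVB, for a log2 fold change of 0.66 (SE 0.069, limma adjusted p = 4.76e-06). Without Control WT rat 3 or without UVB WT rat 1, the change in WT rats was 0.53 or 0.55 and Dsg3 became a DEG there too.

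Dsg2, the desmoglein of simple epithelia and of proliferating keratinocytes, was the lowest member and did not pass. It ranged from 23.6 to 29.4 TPM in Control WT, 25.0 to 27.7 TPM in Control P1.hMR, 24.8 to 27.8 TPM in UVB WT and 24.6 to 29.8 TPM in UVB P1.hMR rats. The 4 ranges overlap. The log2 fold change after UVB was -0.01 in WT (95% confidence interval -0.17 to 0.14, limma adjusted p = 0.914) and -0.04 in P1.hMR rats (-0.18 to 0.09, adjusted p = 0.60). Dsg3 and Dsg2 are neighbours in the rat desmosomal cadherin cluster, with no protein-coding gene between them in the RefSeq annotation of GRCr8.

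Dsc2, the most widely distributed desmocollin, was upregulated in P1.hMR rats. Control P1.hMR rats had 61.9, 67.0, 69.0, 59.0 and 57.6 TPM and UVB P1.hMR rats 81.8, 70.1, 77.0, 114 and 92.0 TPM. All UVB values were above all control values, although the lowest UVB rat (rat 2) exceeded the highest control rat only narrowly and rat 4 stood well above the others. Their means were 62.9 ± 4.98 TPM (SD, n = 5) without and 87.0 ± 17.1 TPM (SD, n = 5) with UVB, for a log2 fold change of 0.45 (SE 0.105, limma adjusted p = 0.00324). In WT rats the values were 55.4, 61.3, 64.6 and 58.9 TPM without and 82.9, 64.5 and 73.0 TPM with UVB. UVB WT rat 2 lay within the control range, and the log2 fold change of 0.28 (SE 0.126) did not pass (limma adjusted p = 0.124).

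Dsc3, the desmocollin of the basal layers and the most abundant of the 4 desmosomal cadherins among the members, did not pass. Its range was 252 to 283 TPM in Control WT, 237 to 272 TPM in Control P1.hMR, 238 to 279 TPM in UVB WT and 233 to 282 TPM in UVB P1.hMR rats, and the 4 ranges overlap. The log2 fold change was -0.05 in WT (95% confidence interval -0.20 to 0.10) and 0.0038 in P1.hMR rats (-0.12 to 0.13), with limma adjusted p = 0.669 and 0.968. The intervals leave out changes as large as those of Dsg3 in the same comparisons.

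Among plaque genes, Jup and Pkp3 rose in P1.hMR rats and Dsp and Pkp1 did not pass in either genotype. Jup encodes plakoglobin, which serves both desmosomes and adherens junctions. Its values were 320.4, 336, 322, 334 and 327 TPM in Control P1.hMR and 376, 329.8, 406, 451 and 444 TPM in UVB P1.hMR rats. UVB rat 2 lay within the control range and the other 4 UVB rats above it, for a log2 fold change of 0.28 (SE 0.081, limma adjusted p = 0.011). In WT rats, 306, 312, 371 and 331 TPM without UVB compared with 415, 346 and 427 TPM after it. Here too UVB rat 2 lay within the control range, and the log2 fold change of 0.26 (SE 0.097) did not pass (limma adjusted p = 0.0672).

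Pkp3, a plakophilin of all living epidermal layers, followed Jup closely. Control P1.hMR rats had 92.2, 98.9, 94.4, 99.1 and 100.3 TPM and UVB P1.hMR rats 109, 95.4, 128, 126 and 131 TPM. UVB rat 2 was again within the control range. The log2 fold change was 0.27 (SE 0.074, limma adjusted p = 0.00911). The WT rats showed 92.7, 91.9, 108 and 96.6 TPM without and 113, 105 and 118 TPM with UVB, with UVB rat 2 below the highest control rat. Their log2 fold change of 0.21 (SE 0.090) did not pass (limma adjusted p = 0.11).

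Dsp, the plaque protein that anchors keratin, ran from 398 to 477 TPM without and from 355 to 432 TPM with UVB in WT rats. In P1.hMR rats it ran from 397 to 458 TPM without and from 365 to 478 TPM with UVB. The groups overlap in both genotypes. The log2 fold change was -0.16 in WT (95% confidence interval -0.35 to 0.03, limma adjusted p = 0.222) and -0.08 in P1.hMR rats (-0.24 to 0.08, adjusted p = 0.446). Pkp1, the plakophilin of suprabasal layers whose loss causes skin fragility, had log2 fold changes of 0.08 (-0.04 to 0.20, adjusted p = 0.35) and 0.09 (-0.01 to 0.19, adjusted p = 0.15). Its level in P1.hMR rats was 432 ± 4.71 TPM (SD, n = 5) without and 461 ± 37.1 TPM (SD, n = 5) with UVB, with UVB values on both sides of the control range.

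The classical cadherins moved in opposite directions in P1.hMR rats, where Cdh1, E-cadherin, fell. It went from 148, 149, 138, 153 and 134 TPM in controls to 107, 104, 119.8, 129 and 119 TPM after UVB. Every UVB rat was below every control rat, with means of 145 ± 8.03 TPM (SD, n = 5) without and 116 ± 10.5 TPM (SD, n = 5) with UVB and a log2 fold change of -0.32 (SE 0.074, limma adjusted p = 0.00273). In WT rats the values were 125, 137, 146 and 150.4 TPM without and 129, 102 and 124 TPM with UVB. UVB WT rat 1 was above the lowest control rat, and the log2 fold change of -0.24 (SE 0.089) did not pass (limma adjusted p = 0.0691).

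Cdh3, P-cadherin, which marks basal epithelial cells and the hair matrix, rose in both genotypes. Control WT rats had 26.1, 33.3, 30.8 and 25.1 TPM and UVB WT rats 36.3, 36.8 and 38.9 TPM. The groups were separate, and the log2 fold change was 0.37 (SE 0.102, limma adjusted p = 0.0169). In P1.hMR rats, 28.4, 27.0, 29.8, 34.7 and 31.8 TPM in controls rose to 40.0, 35.8, 45.6, 43.5 and 44.6 TPM after UVB. These groups did not overlap either, and the log2 fold change was 0.45 (SE 0.084, limma adjusted p = 0.000563). With the hair keratin markers as a covariate, Cdh3 was at 0.34 in WT rats and no longer passed (adjusted p = 0.144), nor did it with only the 2 WT groups in the fit (0.37, adjusted p = 0.0509), whereas it passed under both in P1.hMR rats. Members without overlap between UVB and control were thus Dsg3 and Cdh3 in WT, 2 of 10 against 26.6% of all genes, and Dsg3, Dsc2, Cdh3 and Cdh1 in P1.hMR rats, 4 of 10 against 27.2%.

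**Figure D2:**
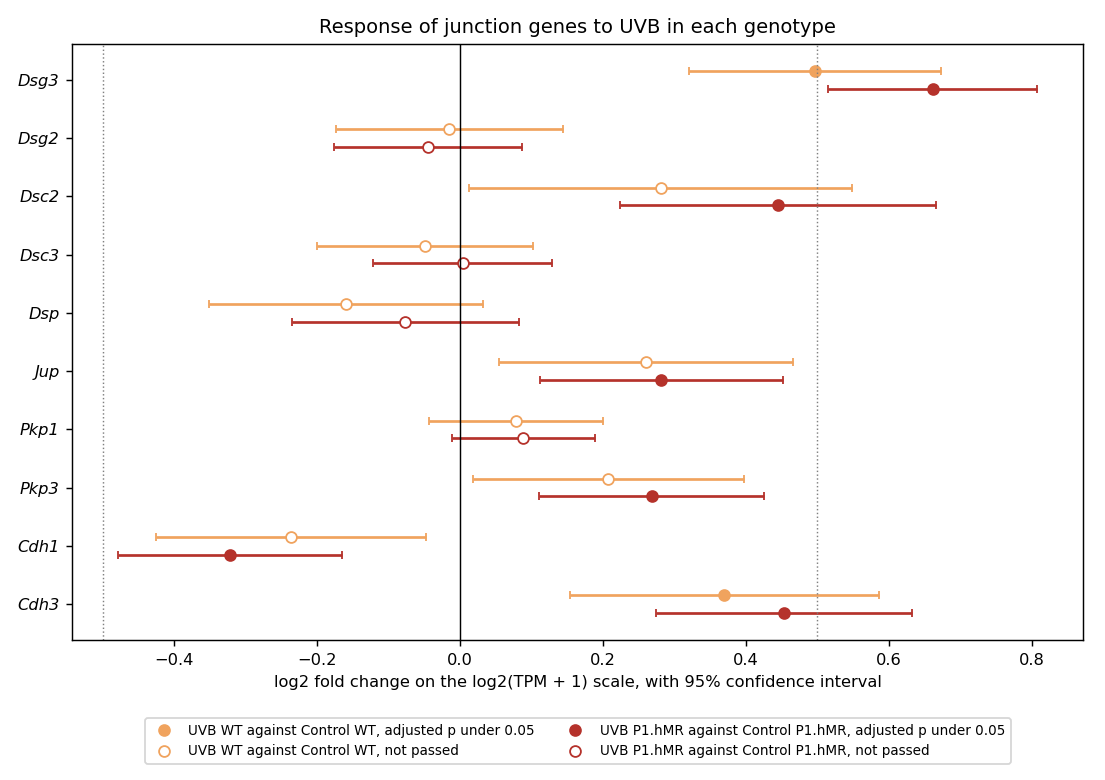
Log2 fold change after UVB on the log2(TPM + 1) scale (horizontal axis) for the 10 junction genes (vertical axis) in WT and P1.hMR rats, with 95% confidence intervals from limma. Filled points passed an adjusted p under 0.05, and dotted lines mark log2 fold changes of 0.5 in either direction. The intervals of WT and P1.hMR rats overlap for each gene.

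Single rats decided some of these calls. In WT rats, Cdh3 no longer passed without Control WT rat 4 (log2 fold change 0.31, limma adjusted p = 0.0518) or without UVB WT rat 3 (0.34, adjusted p = 0.0595), so that 1 of 10 members passed. Cdh1 passed in WT rats without Control WT rat 1 (-0.29, adjusted p = 0.0328) or UVB WT rat 1 (-0.30, adjusted p = 0.0436), and Jup passed without Control WT rat 3 (0.32, adjusted p = 0.0386) or UVB WT rat 2 (0.35, adjusted p = 0.0289). The spread is shared between groups, so leaving out UVB P1.hMR rat 2 brought Jup and Pkp3 past the threshold in WT (adjusted p = 0.0314 and 0.0377), and leaving out UVB P1.hMR rat 4 did so for Dsc2 (adjusted p = 0.0481). In P1.hMR rats, the number of DEGs among members went from 1 to 3 without UVB P1.hMR rat 2, with Dsc2 at 0.52 and Cdh3 at 0.51, and to 2 without Control P1.hMR rat 4, with Cdh3 at 0.50. Pkp1 passed in P1.hMR rats without UVB P1.hMR rat 2 (0.12, adjusted p = 0.0444).

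Members varied together from rat to rat. UVB WT rat 2 was the lowest of its group for 8 of 10 members and UVB P1.hMR rat 2 likewise for 8, while UVB P1.hMR rat 4 was the highest for 8, UVB WT rat 3 for 7 and Control WT rat 3 for 7. After subtraction of group means, Pearson's r over the 17 rats was above 0 in 44 of the 45 pairs of members, with a median of 0.57, and above 0.8 in 10 pairs. Pkp3 and Jup were the closest pair (r = 0.92), followed by Pkp1 and Jup (r = 0.90), and Dsp correlated with Cdh1 (r = 0.86), Dsc2 (r = 0.85) and Pkp1 (r = 0.84). Dsg3 and Cdh3 were the loosest members, with r of 0.10 between Dsg3 and Dsg2 and -0.01 between Cdh3 and Dsc3. Without subtraction of group means the picture divided: Pkp3 and Jup reached r = 0.96 and Dsg3 and Cdh3 r = 0.86, while Dsg3 and Cdh1 had r = -0.71 and Cdh3 and Cdh1 r = -0.58. These correlations describe 17 rats that share tissue composition and scaling within a library, and no test was applied to them.

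**Figure D3:**
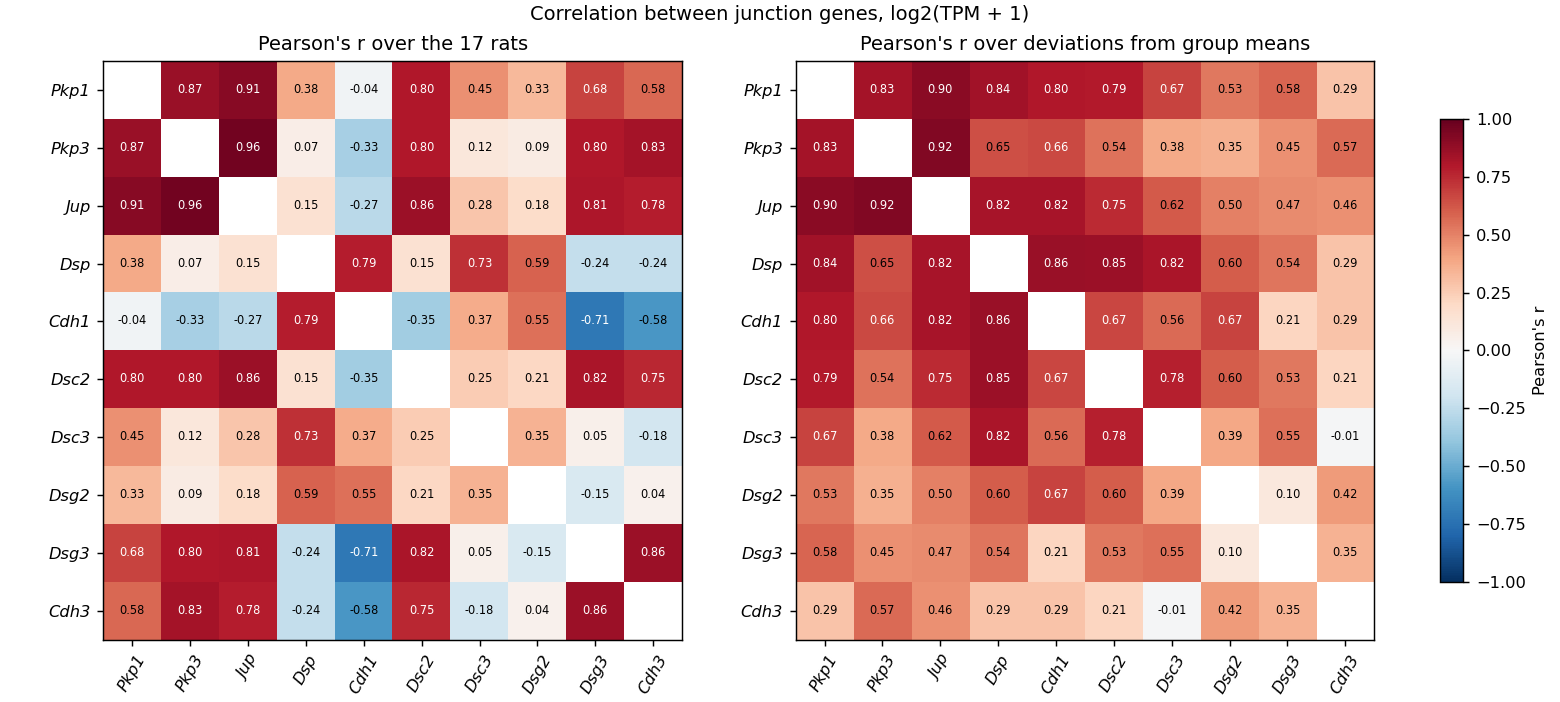
Pearson's r between the 10 junction genes on log2(TPM + 1), over the 17 rats as they are (left) and over deviations from the 4 group means (right). Colour and printed number give r, from -1 in blue to 1 in red. On the left Cdh1 is negative against Dsg3 and Cdh3, and on the right all pairs but Dsc3 with Cdh3 are above 0.

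For the plaque genes Jup, Pkp1 and Dsp, the 250 bases before the annotated starts are given as a description. Whether these bases bear on the correlations above was not tested. They come from RefSeq on GRCr8, which is not the build of the expression values, and are written 5′ to 3′ on the strand of the gene. Capitals mark CAGGTG, the E-box bound by Snail and Zeb repressors of Cdh1, and GGGCGG, the GC box, each searched on both strands (the GC box as CCGCCC on the other strand).
Jup (chr10:85827430-85827679, minus strand): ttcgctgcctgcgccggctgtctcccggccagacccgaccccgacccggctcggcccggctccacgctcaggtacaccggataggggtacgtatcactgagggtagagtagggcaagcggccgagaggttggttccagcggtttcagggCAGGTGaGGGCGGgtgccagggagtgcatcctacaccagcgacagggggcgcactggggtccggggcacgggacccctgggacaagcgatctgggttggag
Pkp1 (chr13:49909163-49909412, minus strand): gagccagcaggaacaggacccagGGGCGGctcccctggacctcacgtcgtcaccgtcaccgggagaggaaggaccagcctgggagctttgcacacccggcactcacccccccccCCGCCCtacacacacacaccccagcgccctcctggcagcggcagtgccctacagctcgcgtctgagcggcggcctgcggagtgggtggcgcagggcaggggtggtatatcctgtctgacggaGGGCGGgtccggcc
Dsp (chr17:26877122-26877371, minus strand): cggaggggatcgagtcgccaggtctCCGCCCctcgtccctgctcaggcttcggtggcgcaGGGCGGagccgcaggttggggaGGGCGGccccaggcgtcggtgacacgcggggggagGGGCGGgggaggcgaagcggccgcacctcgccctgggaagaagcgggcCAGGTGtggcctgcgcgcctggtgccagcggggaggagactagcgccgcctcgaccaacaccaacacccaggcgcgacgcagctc

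Each of these 3 promoters held at least 1 GC box, with 4 in Dsp, 3 in Pkp1 and 1 in Jup, and Jup and Dsp held 1 E-box each. A promoter sequence was matched for 7 of the 10 members. Dsc2 and Dsg2 had 2 GC boxes and 1 E-box each, Dsc3 had 1 GC box, and Dsg3 had neither. Over 33469 rat promoters of the same length, 30.5% held a GC box and 15.9% the E-box. No member promoter held the AP-1 motif TGANTCA (6.34% of all promoters) or the Grainyhead-like motif AACCGGTT (0.146%), each read on both strands. Dsg3 also had the lowest GC content of the 7, at 51.6%, the others lying between 64.4% and 75.2%. A match describes letters in this window only.

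Ratios within a rat remove factors that scale a whole library, and 3 were taken between close relatives. The ratio of Cdh3 to Cdh1 was 0.208 ± 0.0311 (SD, n = 4) in Control WT and 0.210 ± 0.0235 (SD, n = 5) in Control P1.hMR rats, against 0.318 ± 0.0406 (SD, n = 3) in UVB WT and 0.362 ± 0.0198 (SD, n = 5) in UVB P1.hMR rats. The highest control rat had 0.243 and the lowest UVB rat 0.280. These neighbouring genes, with no protein-coding gene between them in the annotation, thus had a higher ratio in every UVB rat than in any control rat.

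The ratio of Dsg3 to Dsg2 ran from 3.26 to 4.11 in Control WT and from 3.09 to 4.06 in Control P1.hMR rats, and from 4.56 to 5.58 in UVB WT and from 5.30 to 6.01 in UVB P1.hMR rats. No UVB rat overlapped a control rat. The ratio of Dsc3 to Dsc2 went the other way, at 4.46 ± 0.169 (SD, n = 4) in Control WT, 3.98 ± 0.101 (SD, n = 5) in Control P1.hMR, 3.55 ± 0.356 (SD, n = 3) in UVB WT and 2.94 ± 0.386 (SD, n = 5) in UVB P1.hMR rats. For this ratio alone among the 3, the control groups of the genotypes also did not overlap. Control P1.hMR rats were at 3.87 to 4.13 and Control WT rats at 4.27 to 4.65. Dsc3 and Dsc2 each overlapped between these control groups and did not pass (-0.10 and 0.06, limma adjusted p = 0.998 each). The ratios were described without a test, and how many other gene pairs separate in this way was not computed.

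**Figure D4:**
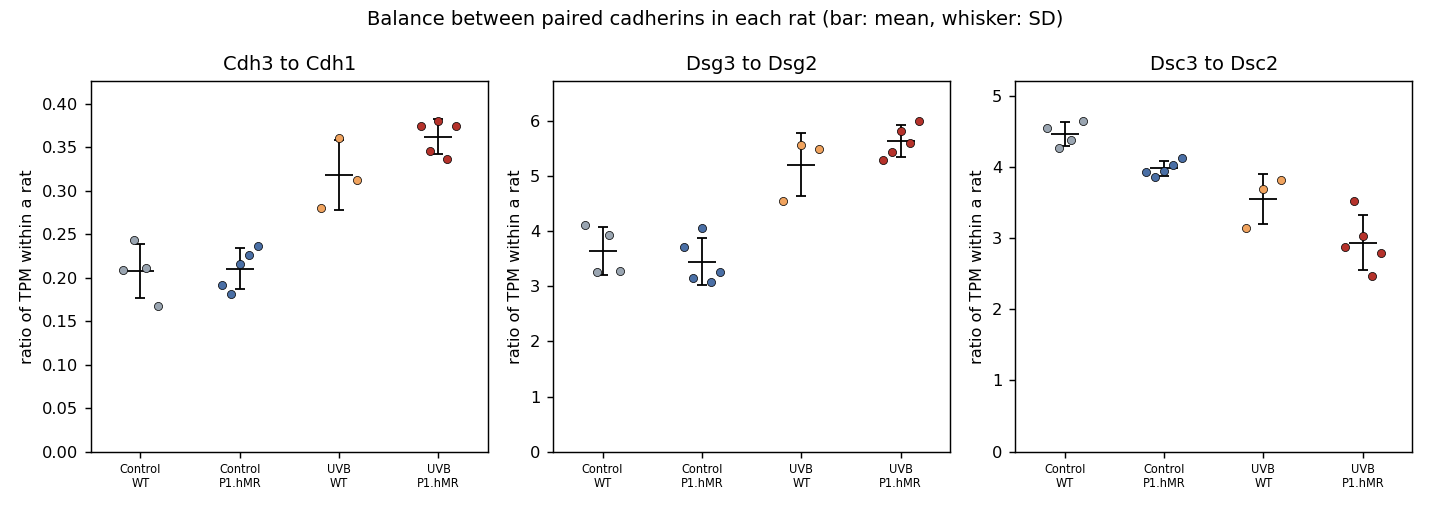
Ratio of TPM within each rat for Cdh3 to Cdh1, Dsg3 to Dsg2 and Dsc3 to Dsc2, with 1 point per rat, a bar at the group mean and whiskers of 1 SD. Vertical axes start at 0 and have no unit. The first pair of ratios is higher in all UVB rats than in all controls, and Dsc3 to Dsc2 is lowest in UVB P1.hMR rats, with a mean of 2.94.

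The genotype comparisons asked whether the MR transgene altered these genes on its own or under UVB. Without UVB no member passed, nor did any have an unadjusted limma p under 0.05 (0.00763% and 4.03% of all genes). The log2 difference of Control P1.hMR from Control WT rats ran from -0.10 for Dsc3 (95% confidence interval -0.23 to 0.03) to 0.07 for Cdh3 (-0.11 to 0.26). Under UVB again no member passed and none had an unadjusted p under 0.05 (0.0305% and 10.3% of all genes). The largest difference was that of Dsc2, 0.23 (95% confidence interval -0.03 to 0.48, limma adjusted p = 0.537), with UVB WT rats at 73.4 and UVB P1.hMR rats at 87.0 TPM on average. Cdh3 differed by 0.16 (-0.05 to 0.36, adjusted p = 0.606) and Dsg3 by 0.10 (-0.07 to 0.27, adjusted p = 0.708). These intervals allow genotype differences of up to 0.48 for Dsc2 under UVB.

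More members passed after UVB in P1.hMR than in WT rats, and the difference between the responses was tested as the genotype-by-UVB interaction. None of the members passed it (0 of 13105 genes did in limma, and 6.92% of genes but no member had an unadjusted p under 0.05). Interaction values were 0.16 for Dsg3 (95% confidence interval -0.06 to 0.39, limma adjusted p = 0.796), 0.16 for Dsc2 (-0.18 to 0.51, adjusted p = 0.88) and -0.09 for Cdh1 (-0.33 to 0.16, adjusted p = 0.919). They were above 0 in 8 of 10 members, which share their control rats and are correlated. A stronger response of these genes in P1.hMR rats was therefore not shown.

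Markers of other cells and of the epithelium were followed as well. For the counts of markers here and in the lists that follow, 11.2% of all genes tested were higher and 10.3% lower in WT rats. In P1.hMR rats these shares were 18.5% and 20.6%. Of the 13 epithelial markers tested, 1 rose and 5 fell in WT, and 1 rose and 6 fell in P1.hMR rats. Their mean log2 level in WT rats was 7.05 ± 0.130 (SD, n = 4) without and 6.87 ± 0.238 (SD, n = 3) with UVB. In P1.hMR rats it was 7.22 ± 0.125 (SD, n = 5) and 6.82 ± 0.169 (SD, n = 5). Their summed TPM, led by the basal keratin Krt14, went the other way, with a median of 10590 in Control WT and 12572 in UVB WT rats. Set against the mean log2 level in the same rat, Cdh1 stayed close to it, at 0.077 without and 0.023 with UVB in WT rats and at -0.033 and 0.038 in P1.hMR rats. Dsg3 moved from -0.45 to 0.23 in WT and from -0.68 to 0.38 in P1.hMR rats, and Cdh3 from -2.16 to -1.61 and from -2.25 to -1.41. With this mean as a covariate, Cdh1 no longer passed in P1.hMR rats (log2 fold change -0.11, limma adjusted p = 0.368), whereas Dsg3 and Cdh3 did (0.63 and 0.56, adjusted p = 0.000719 and 0.00422). The same covariate raised the log2 fold changes of Dsc2, Jup and Pkp3 in P1.hMR rats to 0.67, 0.47 and 0.42 (adjusted p = 0.00298, 0.00458 and 0.00618) and that of Pkp1 to 0.19, which then passed (adjusted p = 0.0327). In WT rats it brought Dsc2, Jup and Pkp3 past the threshold, at 0.39, 0.35 and 0.28 (adjusted p = 0.0335, 0.0141 and 0.0313).

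The epithelial cell adhesion gene Epcam and the tight junction gene Cldn7 were among the epithelial markers that fell, by log2 fold changes of -0.32 and -0.66 in WT and -0.34 and -0.93 in P1.hMR rats. Of the simple keratins, Krt7 fell in both genotypes (-0.57 and -0.65), while Krt18 fell in P1.hMR rats (-1.29) and was at -0.21 in WT rats (limma adjusted p = 0.723). Elf3, an epithelial transcription factor, fell too (-0.51 and -0.52). Langerhans cells also carry Cdh1 and Epcam. Their lectin Cd207 fell from 19.5 to 8.24 TPM in WT and from 22.1 to 8.52 TPM in P1.hMR rats. Of 5 Langerhans markers, 2 were lower and 1 higher in each genotype. The lower ones were Cd207 and Epcam, and Epcam is counted with the epithelial markers too. Macrophage markers rose in 5 of 8 cases in each genotype, and their summed level ran from 97.9 to 174 TPM in control and from 151 to 264 TPM in UVB rats. Among those that rose, Mrc1, C1qb, C1qc and Cd14 did so on the log2 scale by 1.33, 1.25, 0.94 and 0.84 in WT and by 1.33, 1.34, 1.11 and 0.99 in P1.hMR rats. The other 3 macrophage markers did not pass in either genotype. They lay between -0.36 and 0.06 in WT and between -0.29 and -0.12 in P1.hMR rats. Hair keratin markers fell in 7 of 12 cases in WT and 5 of 12 in P1.hMR rats, with sums of 329 to 863 TPM in control and 195 to 494 TPM in UVB rats. Krt82 and Krt32 fell in both genotypes (-1.13 and -1.08, then -0.80 and -0.70), and Krt83 fell in WT rats (-1.15) and was at -0.43 in P1.hMR rats (adjusted p = 0.265). No marker with a deposited value was at 0 in every rat. Beyond the covariates given here and in the closing section, the part of these cells in the junction values was not tested.

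Fibroblast and muscle markers held changes of similar or greater size. Fibroblast markers rose in 3 of 5 cases in both genotypes, with log2 fold changes of 1.89 and 1.88 for lumican (Lum), 0.93 and 0.88 for decorin (Dcn) and 0.82 and 0.73 for Pdgfra, whereas the collagen Col1a1 fell in P1.hMR rats (-0.86) and was at -0.51 in WT rats (limma adjusted p = 0.116). Skeletal muscle markers fell in 2 of 8 cases in each genotype. These were Actn3, at -1.84 and -1.36, and Pvalb, at -1.68 and -0.99. The other 6 muscle markers did not pass in either genotype. A count of 2 of 8 lies near or below the 21.5% and 39.1% of all genes that passed in WT and P1.hMR rats. Endothelial markers rose in 3 of 4 cases in WT, and rose in 1 and fell in 1 in P1.hMR rats. Among them Vwf rose in both (0.70 and 0.55), and Egfl7 rose in WT rats (0.43) and was at 0.09 in P1.hMR rats (adjusted p = 0.582). Meibocyte markers rose in 3 and fell in 3 of 10 cases in WT, and rose in 1 and fell in 3 in P1.hMR rats. The latter count lies close to the 39.1% of all genes that passed in P1.hMR rats. Awat2, an enzyme of wax ester synthesis, was at -0.65 and -0.52 and the fatty acid binding protein gene Fabp5 at 0.55 and 0.60.

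The remaining desmosome genes, listed for 7 of 12 symbols, mostly did not follow Dsg3. In WT rats 2 of 7 fell and none rose, and in P1.hMR rats 3 fell and 1 rose. For this and the lists that follow, 11.2% of all genes tested were higher and 10.3% lower in WT rats, and 18.5% and 20.6% in P1.hMR rats. Besides Dsg4, the envelope plakin Evpl fell in both genotypes (-0.39 and -0.45, limma adjusted p = 0.0169 and 0.000948). Pkp4 fell in P1.hMR rats (-0.28, adjusted p = 0.0118) and was at -0.12 in WT rats (adjusted p = 0.421). Dsg4, the desmoglein of the hair shaft, was a DEG in both genotypes, with 4.3 to 6.76 TPM in Control WT and 1.53 to 3.95 TPM in UVB WT rats. The Dsg4 log2 fold change was -1.06 (limma adjusted p = 0.00637) in WT and -0.53 (0.0471) in P1.hMR rats. Its call in P1.hMR rats lay near the threshold, passing in 4 of 11 alternatives (-0.73 to -0.036, adjusted p up to 0.764) and in 6 of 17 fits with a rat left out (-0.69 to -0.45). Dsg4 is itself among the hair keratin markers, so a fit with these as a covariate adjusts it partly for itself. In that fit Dsg4 was at -0.23 in WT (adjusted p = 0.194) and at -0.036 in P1.hMR rats (adjusted p = 0.764), which says little about its call. Perp, an abundant membrane protein of desmosomes, rose slightly in P1.hMR rats (log2 fold change 0.14, adjusted p = 0.0223) and was at 0.05 in WT rats (adjusted p = 0.531). Perp no longer passed in P1.hMR rats without Control P1.hMR rat 2 or 4 or UVB P1.hMR rat 4 or 5 (0.13 in each case, adjusted p of 0.0536 to 0.0587), nor with the skeletal muscle or epithelial covariate (0.11 and 0.15, adjusted p = 0.115 and 0.134).

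Genes of the adherens junction plaque and the nectins, counted as 1 list, fell or did not pass. Of these 14 genes, 4 fell in WT rats, 7 fell in P1.hMR rats and none rose, against 10.3% and 20.6% of all genes lower. The counts are thus not those of the catenins alone. Ctnna1, α-catenin, which links the cadherin complex to actin, fell by log2 fold changes of -0.17 (limma adjusted p = 0.0298) and -0.22 (0.00079). In WT rats Ctnna1 passed in 7 of 12 alternatives (-0.20 to -0.094, adjusted p up to 0.396) and no longer passed without Control WT rat 3 or 4 or UVB WT rat 2 or 3 (-0.15, -0.16, -0.11 and -0.18, adjusted p = 0.074, 0.0586, 0.156 and 0.0536). In P1.hMR rats it was lost with the epithelial covariate alone (-0.11, adjusted p = 0.139). Ctnnb1, β-catenin, did not pass, at -0.08 and -0.07 (adjusted p = 0.364 and 0.265), and stood at 233 TPM in Control WT and 221 TPM in UVB WT rats. Of 5 cadherins of other cell types, 2 rose in WT, and 1 rose and 1 fell in P1.hMR rats. Cdh5 of endothelium rose in WT rats (0.33, adjusted p = 0.0137), with 0.15 in P1.hMR rats (adjusted p = 0.129), and Cdh13 rose in P1.hMR rats (0.38, adjusted p = 0.000478). Cdh5 no longer passed in WT rats without UVB WT rat 1 or 3 (0.29 and 0.31, adjusted p = 0.056 and 0.0511), with only the 2 groups in the fit (adjusted p = 0.0701) or with the hair keratin covariate (adjusted p = 0.109). In WT rats Cdh13 stood at the threshold (0.24, adjusted p = 0.0479), and it passed there in 5 of 12 alternatives (adjusted p up to 0.233) and in 4 of 17 fits with a rat left out (adjusted p up to 0.126).

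Hemidesmosome genes, which fix basal cells to the basement membrane, divided in P1.hMR rats. In WT rats 1 of 7 rose and none fell. In P1.hMR rats 2 rose and 3 fell, the latter by log2 fold changes between -0.45 and -0.27. Itgb4, the β4 integrin of this structure, rose in both genotypes, at 0.41 and 0.40 (limma adjusted p = 0.0152 and 0.00273). With the skeletal muscle or hair keratin markers as a covariate, Itgb4 no longer passed in WT rats (0.42 and 0.49, adjusted p = 0.0538 and 0.0562). Col17a1, the transmembrane collagen of the same structure, did not pass, at -0.17 and -0.17 (adjusted p = 0.201 and 0.0952).

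**Figure D5:**
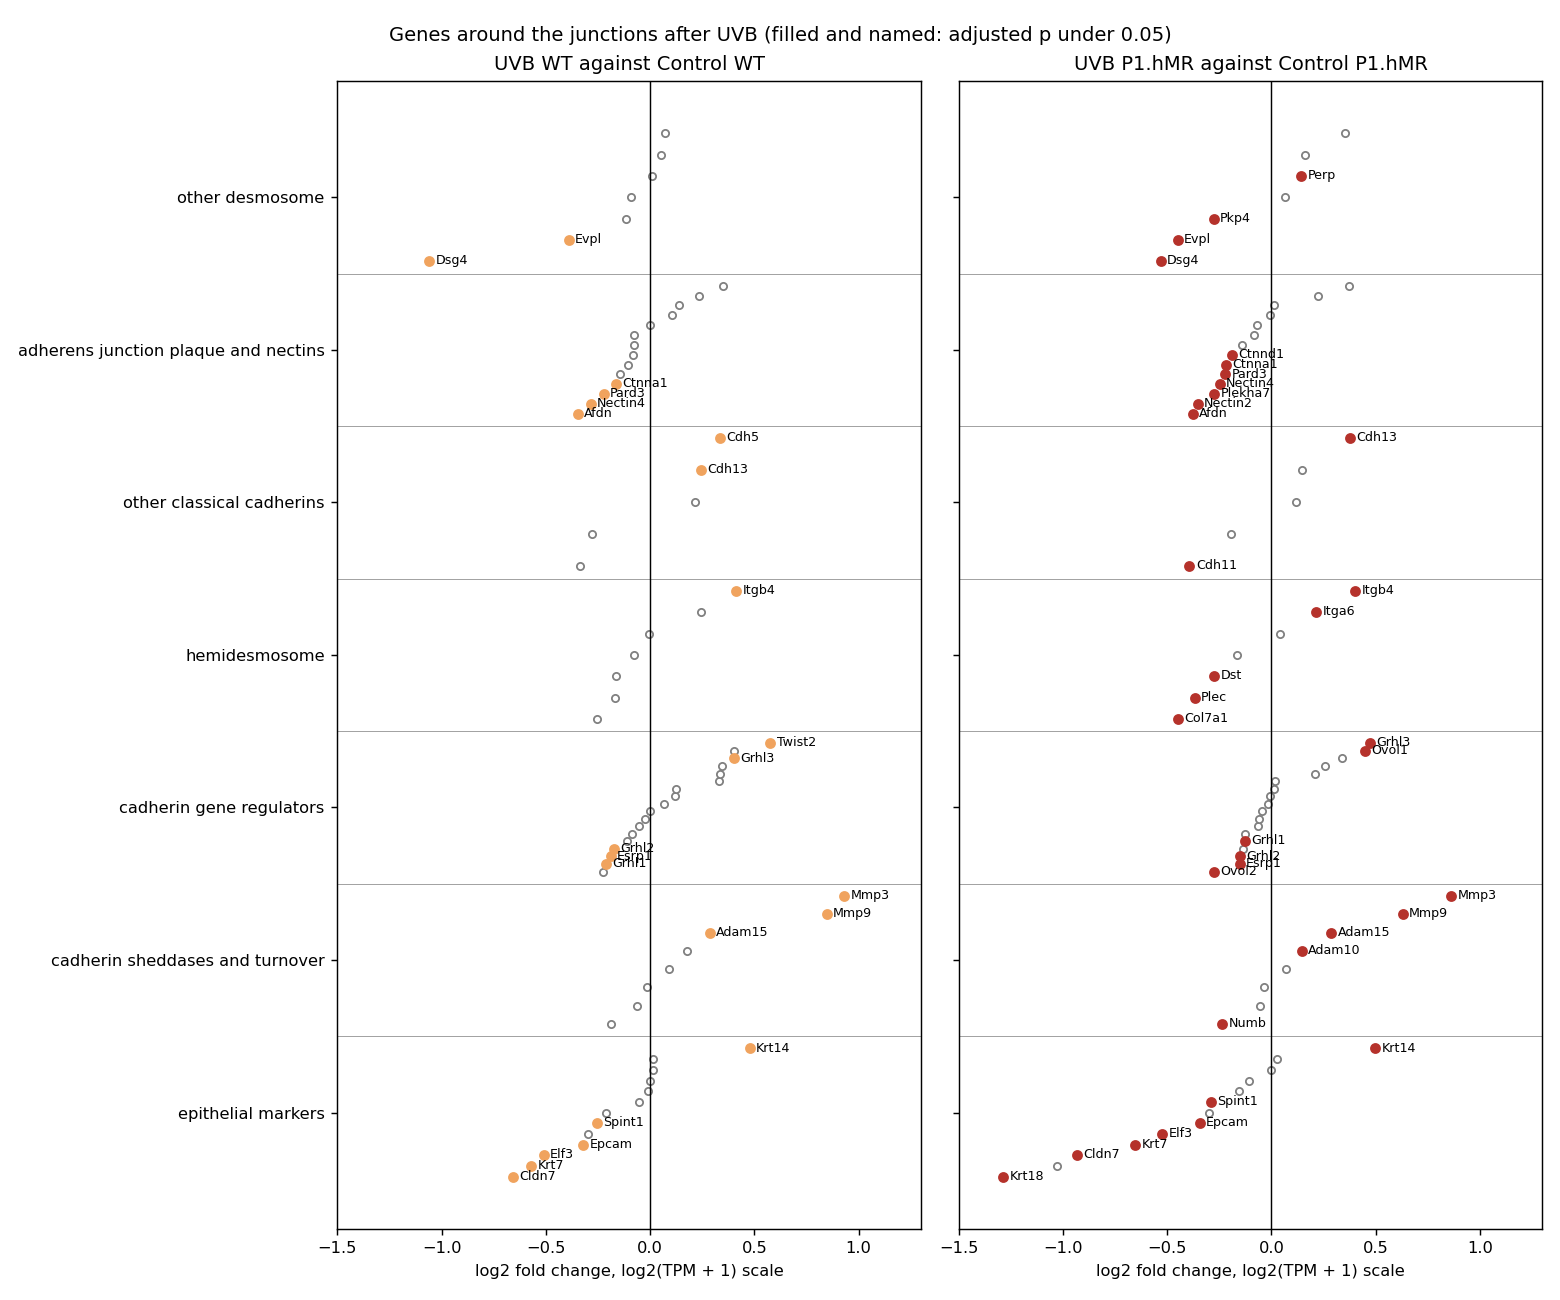
Log2 fold change after UVB on the log2(TPM + 1) scale (horizontal axis) for genes of 7 lists around the junctions (rows), in WT rats on the left and P1.hMR rats on the right. Filled and named points passed an adjusted p under 0.05 in limma, and open points did not. The adherens junction plaque and nectin genes that passed are all left of 0, and Mmp3 and Mmp9 lie far to the right in both panels.

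Factors known to repress or maintain Cdh1 were followed next. Of 18 regulators tested, 2 rose and 3 fell in WT, and 2 rose and 4 fell in P1.hMR rats. That is 5 and 6 of 18 against 21.5% and 39.1% of all genes, near or below the background, and is not a result about the list. The repressors Snai1 and Snai2 did not pass, with log2 fold changes of 0.40 and 0.33 in WT (limma adjusted p = 0.154 and 0.0592). Under the transgene they stood at 0.34 and 0.21 (adjusted p = 0.11 and 0.107). Snai1 passed in P1.hMR rats in 2 of 11 alternatives. These were array weights (0.40, adjusted p = 0.0338) and the epithelial covariate (0.66, adjusted p = 0.0408). Snai2 passed in WT rats without UVB WT rat 1 (0.45, adjusted p = 0.0186). Zeb1 and Zeb2 did not pass, at 0.07 and 0.13 after UVB in WT and at -0.14 and -0.04 in P1.hMR rats. Twist2 rose in WT rats (0.58, adjusted p = 0.0226) and did not pass in P1.hMR rats (0.26, adjusted p = 0.159), with an interaction of -0.32 (adjusted p = 0.812). In WT rats Twist2 no longer passed without Control WT rat 4 or UVB WT rat 1 (0.50 and 0.39, adjusted p = 0.0641 and 0.121), and it passed in 9 of 12 alternatives. With the epithelial covariate Twist2 passed in P1.hMR rats (0.60, adjusted p = 0.0203).

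Esrp1, an epithelial splicing regulator, fell in both genotypes (-0.19 and -0.15, limma adjusted p = 0.00144 and 0.000599), and passed under every alternative and with each rat left out. The Grainyhead-like factor Grhl2 was at -0.17 and -0.15 (adjusted p = 0.0426 and 0.0194). In WT rats this passed in 6 of 12 alternatives (adjusted p up to 0.206) and in 8 of 17 fits with a rat left out. In P1.hMR rats it passed in 9 of 12 alternatives (-0.16 to -0.081), and not without Control P1.hMR rat 4 or 5 (-0.13 each, adjusted p = 0.0542 and 0.0543). Its relative Grhl3, a factor of epidermal barrier formation, rose in P1.hMR rats (0.47, adjusted p = 0.00294) under all 12 alternatives. In WT rats Grhl3 was at 0.40 (adjusted p = 0.0411) and passed in 9 of 12 alternatives (adjusted p up to 0.207) and in 11 of 17 fits with a rat left out (0.30 to 0.58, adjusted p up to 0.168). Ovol1 rose in P1.hMR rats (0.45, adjusted p = 0.00333) with 0.33 in WT (adjusted p = 0.0727), where it passed without UVB WT rat 2 (0.47, adjusted p = 0.0269) and in 3 of 12 alternatives.

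Of 8 genes that shed or turn over cadherins, 3 rose in WT, and 4 rose and 1 fell in P1.hMR rats. The DEGs in both genotypes were the matrix proteases Mmp3, at 0.93 and 0.86 (adjusted p = 0.00651 and 0.00123), and Mmp9, at 0.85 and 0.63 (adjusted p = 0.00276 and 0.00225), the latter at low levels. Mmp9 averaged 0.172 TPM in Control WT and 1.15 TPM in UVB WT rats, so its size depends on the pseudocount: with 0.1 in place of 1 the log2 fold change came to 2.13 without and 1.74 with the transgene. Mmp3 did not pass in WT rats with only the 2 groups in the fit (adjusted p = 0.0787), nor did Mmp9 in P1.hMR rats with the epithelial covariate (0.58, adjusted p = 0.0603).

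Over the 17 rats, the genes tested whose log2 levels correlated most with Dsg3 were Cnfn, a cornified envelope protein, and the kallikreins Klk12 and Klk13 (each r = 0.98), and the same 3 led after subtraction of group means (r of 0.82 to 0.83). Closest to Cdh1 were Pgghg (r = 0.96), the envelope plakin Evpl (r = 0.96) and Cwh43 (r = 0.95), with Pgghg leading again within groups (r = 0.93). Cdh3 was closest to Lrp8 (r = 0.95), Gna15 (r = 0.94) and Cpne8 (r = 0.93), and within groups to Stat5a (r = 0.93), Fam160a2 and Ppp1r14a (each r = 0.87). Dsp was closest to Iqgap1 (r = 0.91), Eps8l1 (r = 0.87) and Pinlyp (r = 0.86), and within groups to the plakin Ppl, Eps8l1 and Ckap4 (each r = 0.92). These were picked as the highest of 13105 genes and serve as a description only.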

How the data were processed

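RNA of the MG of 17 female rats was sequenced. The authors deposited TPM for 17251 genes with decimal commas and 2 decimals. Their methods name FastQC, STAR alignment to rn7 and RSEM, whereas the submitters' processing notes list FastQC, Trimmomatic, DRAGEN and Picard, so the tool behind the TPM is not settled. TPM keeps no counts, so depth and counting error are unknown, and reads of similar cadherins may have been split between them. 0 columns were left unused.

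From these values, log2(TPM + 1) was tested in R 4.3.3 with limma 3.58.1 (variance trend, 4 group means, two-sided), after a check on simulated data. Groups came from the labels, and each rat is an animal. The study's DESeq2 needs counts and was not run. Figures and the motif search used Python 3.11.15.

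The members and all gene lists were chosen with earlier results of these data known. From each other list, up to 4 DEGs with the largest changes were named, or its 2 most expressed genes where fewer than 2 were DEGs, besides 7 regulators of Cdh1 (Snai1, Snai2, Zeb1, Zeb2, Grhl2, Grhl3 and Ovol1) and Esrp1, and the 3 genes most correlated with Cdh1, Cdh3, Dsp and Dsg3. Krt14 is named outside this rule, since it led a sum, chosen after its values were seen. The fold changes of Evpl and Pkp4 are given outside it too, to show which desmosome genes fell, and alternatives are not given for them. 1 hemidesmosome gene is not reported here. Alternatives were another pseudocount, filters, scalings, fits, weights, covariates and thresholds, a replicate block and each rat left out.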

Additional observations from a re-analysis of the deposited data

How the results depend on the processing

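Under 12 alternatives per gene and with each of 17 rats left out, Dsg3 passed in both genotypes throughout, and Dsc2, Jup, Pkp3 and Cdh3 did in P1.hMR rats. Cdh1 in P1.hMR rats passed in 11 of 12, and Cdh3 in WT rats in 10 of 12 and in 15 of 17 with a rat left out. Cdh1 in WT rats passed with quantile normalization (-0.27). The number of DEGs among members in WT rats, 0, was 1 with a pseudocount of 0.1 and with array weights and 2 without the fold change threshold. In P1.hMR rats, 1 became 3 with the epithelial covariate, 6 without the threshold and 0 with a threshold of 1 on the log2 scale. Members past the adjusted p in WT rats, 2, were 1 with only the 2 groups in the fit or the hair keratin covariate, and 5 with the epithelial covariate. With a rat left out these counts ran from 0 to 1, 1 to 3 and 1 to 4.

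The labels number the rats of each group alike. Deviations from group means correlated between same-numbered rats with r of -0.19 to 0.24 (22 pairs, median -0.0051, 4 over 0.1). Between other rats r ran from -0.26 to 0.18 (85 pairs, median 0.0080, 14 over 0.1). Of 17 rats, 6 correlated best with a rat of their own number. These values gave no clear sign of a pairing by number, but cannot exclude one. With a replicate block, 4 members passed in WT rats, with Jup at 0.29 and Pkp3 at 0.23, and the other member counts were the same.

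Directions turned only in genes and comparisons that had not passed, most of them near 0 (Col17a1 and Zeb1 in P1.hMR rats, at -0.17 and -0.14, less so). Dsc3 in P1.hMR rats was -0.035 with quantile normalization, -0.021 with array weights and -0.045 with the skeletal muscle covariate, and ran from -0.039 to 0.035 with a rat left out. Dsg2 in WT rats was 0.017 with the block, 0.027 with the hair keratin covariate and 0.065 with the epithelial one (-0.070 to 0.033 with a rat left out), and Perp was -0.0016 with the muscle covariate. Zeb2 in P1.hMR rats was 0.0053 with the hair keratin covariate. The epithelial covariate gave, in P1.hMR rats, Dsg2 0.13, Dsp 0.062, Ctnnb1 0.065, Col17a1 0.0089, Zeb1 0.023 and Zeb2 0.16, and a Cdh1 interaction of 0.027. The causes were not tested. With a rat left out, Dsc3 in WT ran from -0.10 to 0.012, its genotype difference under UVB from -0.11 to 0.0063, Zeb1 in WT from -0.030 to 0.16 and Zeb2 in P1.hMR rats from -0.13 to 0.062.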
